A study of Mus musculus with 72 samples.

Results

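Acute promyelocytic leukaemia (APL) was modelled in mice by viral transduction of PML/RARA. The untreated leukaemias that were labelled wild type were compared with those labelled Pml null. The members were the untreated arrays of this model, 12 of the 72 arrays of the series, chosen by their labels for model and treatment and not by any measured value. Each background held 6 arrays of total RNA from bone marrow, all with the fusion protein PML/RARA and none treated. Of the 6 arrays of each background, 2 were labelled 6 h in batch 3, 2 were labelled 12 h in batch 3, and 2 were labelled 6 h in batch 4. Both backgrounds therefore had the same balance of times and batches. The null group carries the background label pml-/- and the other the background label WT, which names no locus and is read here as Pml wild type. The labels do not give the strain, age or sex of the mice, the deleted part of the Pml allele, or whether the arrays of a background came from 1 leukaemia or several. Background and leukaemia of origin therefore cannot be told apart, and the p-values below reflect the scatter of these arrays only.

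PML is the organizing protein of PML nuclear bodies, which gather partner proteins modified by SUMO and take part in p53 signalling, senescence and the antiviral response. The Pml gene is itself induced by interferon. In APL a translocation fuses PML to the retinoic acid receptor alpha (RARA), the fusion scatters the nuclear bodies, and myeloid differentiation stops at the promyelocyte, a cell full of primary granules. The comparison without treatment asks how leukaemias with the same fusion differ when the normal Pml alleles are absent, before retinoic acid (RA) is given.

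Values are RMA expression levels on the log2 scale from Mouse Gene 1.0 ST arrays, and differences are log2, null minus wild type, with their standard error (SE). Genes were tested with limma on the 12 arrays with batch as an additive term, and a gene is called when its Benjamini-Hochberg adjusted p over 19938 genes was below 0.05. The median level of an array lay between 6.56 and 6.64 on all 12 arrays, and the residual SD of a median gene was 0.106. Over all genes, arrays of the same background correlated at 0.992 to 0.998 and arrays of different backgrounds at 0.964 to 0.979. The first principal component held 71.6% of the variance between the 12 arrays.

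The probe set for Pml did not separate the labelled backgrounds. On the wild type arrays Pml lay at 9.20, 9.37 and 9.46 (lowest, median, highest), and on the null arrays at 9.08, 9.30 and 9.52, so that the groups overlapped. The difference was -0.04 (SE 0.07, limma adjusted p 0.68). On the RA-treated arrays of the same model, 12 per background, Pml lay at 9.28 to 10.23 in wild type and 9.56 to 10.22 in null. The probes' place relative to the deleted part is not given in the sources used here, so this level checks nothing about the labels, and null is used below as the label. The 50 measured genes nearest to Pml, 25 on each side in the gene order of the GRCm38 annotation, were also counted. Of these, 14 were called (2 higher and 12 lower), which is 28%, against 34.2% of all genes called either way. By direction, 19.5% of all genes were higher and 14.7% lower, whereas most calls among the neighbours were falls. The largest were Rpp25, a subunit of RNase P, at -1.96 and Scamp5, a secretory carrier membrane protein, at -1.65; these names were taken after the values were seen.

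Of the 6 markers fixed for APL promyelocytes, Mpo and Ctsg were high in both backgrounds, Kit was higher in null, and Elane, Prtn3 and Ms4a3 were lower in null; the values of the last 4 are given below. Mpo, the myeloperoxidase of primary granules, lay at 13.25, 13.31 and 13.38 on the wild type arrays and at 13.44, 13.50 and 13.51 on the null arrays. Ctsg, the granule protease cathepsin G, lay at 12.89 to 13.10 in wild type and 13.28 to 13.37 in null. Their differences were small, 0.17 (SE 0.04) for Mpo and 0.31 (SE 0.04) for Ctsg, although the groups did not overlap. Xist was high (8.50 to 10.23) and the Y-linked Eif2s3y low (3.56 to 3.75) on all 12 arrays, without a split between the backgrounds. Of 22 measured genes known to vary between inbred strains, 5 were higher and 6 lower, beside 19.5% and 14.7% over all genes (34.2% either way). The differences called ran from -1.51 for Mcpt8, a basophil protease, to 0.40 for Wdfy1, with Sirpa at -0.59 and Nnt at 0.28.

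The backgrounds differed at a large share of genes. In null, 3880 genes were higher (19.5% of those tested) and 2940 were lower (14.7%), while 735 (3.69%) were called higher and 972 (4.88%) called lower by at least 1.5-fold. The median difference over all genes was 0.0028 and the median absolute difference 0.0965, so most calls were small. Large differences were mostly falls. Of the called genes, 143 were at least 4-fold lower and 75 at least 4-fold higher, and 18 were at least 16-fold lower against 4 that were at least 16-fold higher. The groups of 6 did not overlap at 3642 genes (18.3%), among them 1576 of the 1707 genes called with at least 1.5-fold.

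The largest named fall was Gal, which encodes the neuropeptide galanin. It lay at 12.18, 12.59 and 12.91 on the wild type arrays and at 6.14, 6.45 and 6.80 on the null arrays. All null arrays were far below all wild type arrays, a 69.9-fold difference (log2 -6.13, SE 0.12, limma adjusted p 1.8e-13). Ms4a3, a membrane protein of granulocyte and monocyte progenitors, lay at 12.49, 12.59 and 12.63 in wild type and at 6.40, 6.94 and 7.19 in null, 53.1-fold lower (limma adjusted p 2.2e-13). Ms4a3 was the one marker among 6 fixed for APL promyelocytes that was near the array median in null.

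Car4, a membrane-bound carbonic anhydrase, lay at 10.47, 11.31 and 11.76 in wild type against 5.35, 5.54 and 5.82 in null. Mgl2, a galactose-binding lectin of macrophages and dendritic cells, lay at 10.81, 11.17 and 11.38 against 5.40, 5.49 and 5.88. Ceacam10, of the carcinoembryonic antigen family, lay at 10.80, 11.37 and 11.76 against 5.75, 5.82 and 5.91. These 3 genes were 46.9-fold to 49.9-fold lower, with no overlap between groups. The receptor and a ligand of IL-36 signalling both fell. Il1rl2, the receptor, fell by 4.49 on the log2 scale (SE 0.12), and Il1f9, which encodes IL-36 gamma, by 4.22 (SE 0.14). Il1r2, the decoy receptor for IL-1, fell by 4.52 (SE 0.19). Bst1, the surface enzyme CD157 of myeloid cells, fell by 3.89, and Orm1, an acute-phase protein, by 3.95. The glandular kallikreins Klk1b11 and Klk1b22 fell by 4.96 and 4.64; they are close paralogs, and their probe sets may share signal. Over the 20 largest named falls, the differences ran from 14.8-fold to 69.9-fold and no gene had overlapping groups. The groups did not overlap at 18.3% of all genes, and genes picked by size on these same arrays were likely to be among them.

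The largest named rise was Il17rb, a receptor chain for IL-25. It lay at 5.53, 5.81 and 6.44 on the wild type arrays and at 10.33, 10.63 and 10.87 on the null arrays. Every null array was above every wild type array, a 25.5-fold difference (log2 4.67, SE 0.14, limma adjusted p 9.8e-12). Il6st, the signalling chain gp130 shared by IL-6 family receptors, lay at 7.12, 7.79 and 8.07 against 11.15, 11.37 and 11.60, which was 12.8-fold higher in null.

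Cpa3, the carboxypeptidase of mast cells and their progenitors, lay at 8.34, 9.29 and 10.16 against 12.14, 12.39 and 12.76, 9.38-fold higher with a wide spread among wild type arrays. Tcf12, an E protein transcription factor, rose by 3.04 (SE 0.18), and Satb1, a chromatin organizer of lymphoid and stem cells, by 2.87 (SE 0.18). Some rises were in genes known from the germ line: Dmrt1, a transcription factor of the gonad, rose by 3.24 (SE 0.06) and Dmc1, the meiotic recombinase, by 3.08 (SE 0.10). Chit1, a chitinase of macrophages, rose by 3.45, Mgam, an intestinal maltase also made by neutrophils, by 3.10, and Cd40lg, the ligand of CD40, by 3.17. The 20 largest named rises ran from 6.89-fold to 25.5-fold, also without overlap in any gene, which the choice by size made likely beforehand. The naming rule leaves out predicted genes and clone names; 1 such fall, Gm5662 at -7.76, and 1 such rise, 4930447C04Rik at 5.17, were larger.

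**Figure D1:**
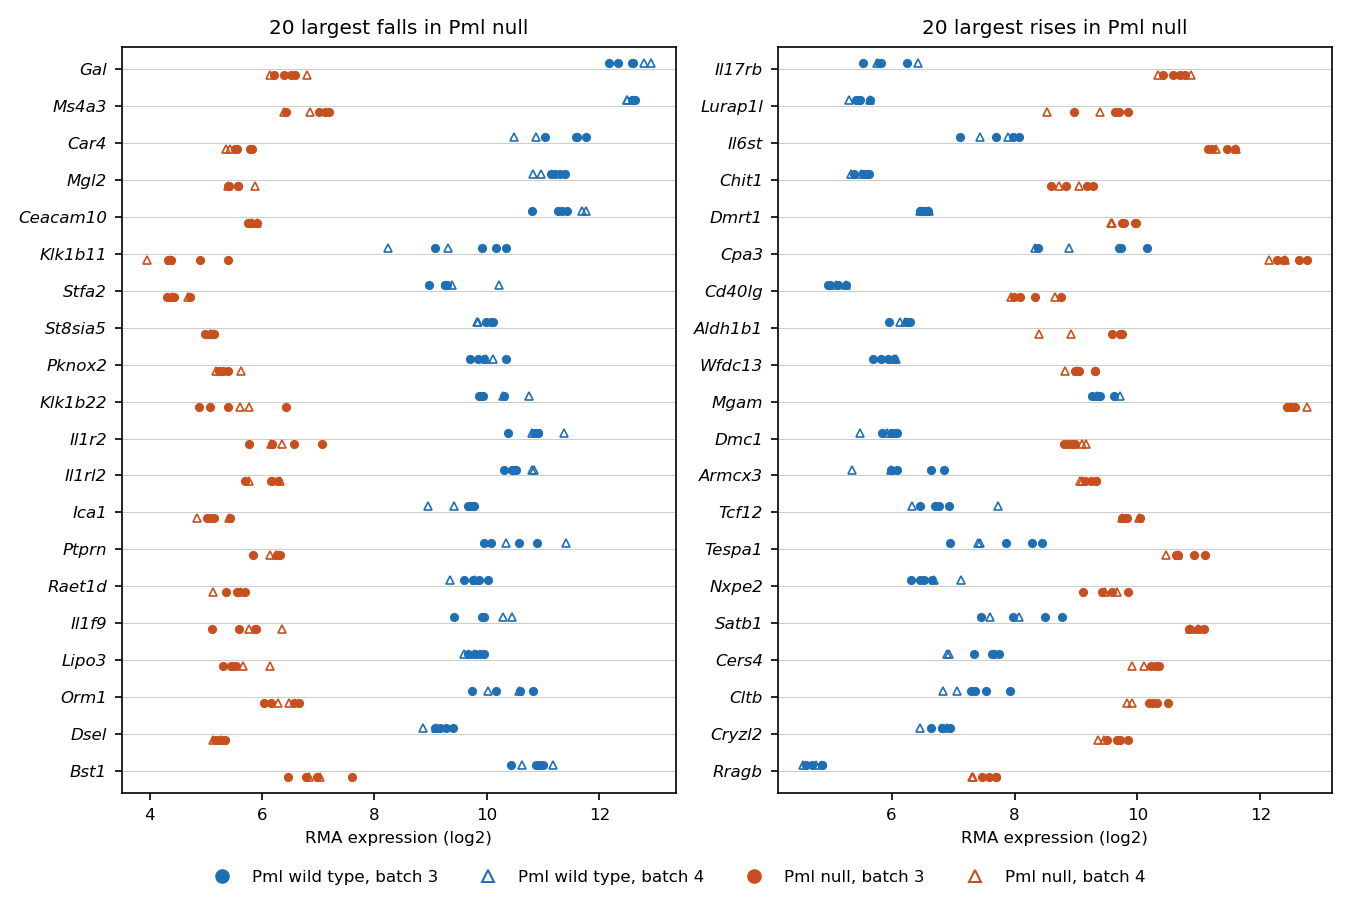
RMA expression (log2) of the 20 named genes with the largest falls (left) and rises (right) in null, 1 point per array, with filled circles for batch 3 and open triangles for batch 4. In every gene the 6 null arrays (orange) lie apart from the 6 wild type arrays (blue), from Gal at 6.14 to 6.80 against 12.18 to 12.91, to Rragb at 7.31 to 7.69 against 4.55 to 4.87. The genes were picked by size on these same arrays, so the separation was likely beforehand.

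Interferon response genes were lower in null almost throughout. Of 24 measured members of the list, 23 were called lower, none higher, and 20 were called lower by at least 1.5-fold. Over all genes, 14.7% were called lower and 4.88% lower by at least 1.5-fold. The list median was -1.17, against 0.0028 over all genes. On each array the mean level of the list was 8.61 to 9.11 in wild type and 7.29 to 7.58 in null. The member that was not called was Mx1, at 4.88 to 5.22 on all 12 arrays (difference -0.13, limma adjusted p 0.0784). Promoters of 4 of these genes are shown because their genes fell and the window before the start holds a match to the core of the interferon-stimulated response element (ISRE), GAAA followed by any bases at 2 positions and GAAA again. They were read from RefSeq promoter sequences (GRCm38.p6), along the gene's strand from 5′ to 3′, and capitals mark each match on either strand, overlapping matches joined. The windows are Ifit1, chr19:34640745-34640853 (plus strand); Oas1a, chr5:120907526-120907585 (minus strand); Ddx60, chr8:61927994-61928086 (plus strand); and Ifit3, chr19:34583333-34583456 (plus strand).
Ifit1: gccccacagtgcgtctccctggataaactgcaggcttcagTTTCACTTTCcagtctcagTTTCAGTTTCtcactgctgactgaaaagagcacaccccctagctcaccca
Oas1a: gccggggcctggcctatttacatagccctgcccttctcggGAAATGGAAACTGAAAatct
Ddx60: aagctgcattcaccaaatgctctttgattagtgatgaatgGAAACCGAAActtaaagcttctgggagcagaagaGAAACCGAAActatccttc
Ifit3: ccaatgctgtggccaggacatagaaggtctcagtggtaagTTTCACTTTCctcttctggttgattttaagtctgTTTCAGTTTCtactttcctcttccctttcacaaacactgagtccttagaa

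These 4 are the genes with the largest falls among list members whose 250 bases before the start hold a match, and they were chosen after the values were seen. Ifit1, an antiviral protein that binds foreign RNA ends, lay at 8.01, 8.48 and 9.12 on the wild type arrays and at 5.27, 5.82 and 6.03 on the null arrays. Oas1a, an enzyme that activates RNase L, lay at 9.16, 9.31 and 9.43 against 6.65, 7.15 and 7.74. Ddx60, an antiviral helicase, lay at 7.87, 8.36 and 8.54 against 6.33, 6.51 and 7.13. Ifit3, a partner of Ifit1, lay at 6.20, 6.99 and 7.96 against 5.11, 5.30 and 5.65, so in none of the 4 genes did the groups overlap. Promoters on chromosome 18 were left out of these counts. A match stood in 10 of the 18 list members with a promoter counted (55.6%) and in 936 of all 27025 genes counted (3.46%). Of the measured genes, 531 of 15614 held a match (3.40%). Among these it stood in 56 of 766 called lower by at least 1.5-fold (7.31%) and in 20 of 578 called higher by as much (3.46%).

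Other members showed the same direction. Rtp4, an interferon-induced receptor transporter, lay at 10.07, 10.21 and 10.62 in wild type and at 5.83, 6.67 and 6.74 in null (log2 -3.76, SE 0.14, limma adjusted p 1.3e-10). Irf7, the transcription factor that amplifies type I interferon, lay at 9.86, 10.30 and 10.71 against 7.49, 8.01 and 8.28 (log2 -2.30). Oas2 fell by 2.57 (SE 0.09) and Xaf1 by 1.57 (SE 0.09). Genes of antigen presentation, a process that interferons raise, followed in part. For MHC class I, 7 of 14 were lower and 1 was higher, beside 14.7% lower and 19.5% higher over all genes. The immunoproteasome subunits Psmb8 and Psmb9 differed by -0.64 and -0.57. For MHC class II and co-stimulation, 7 of 8 were lower (list median -0.69); H2-DMa, which loads peptides, fell by 1.09 and Cd80, a co-stimulatory ligand, by 2.93.

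Genes of granulocyte maturation were lower in null. Of 24 measured secondary granule and mature neutrophil genes, 22 were called lower, all by at least 1.5-fold, and none higher. The share lower by at least 1.5-fold was 4.88% over all genes. The list median was -1.76. The members that were not called were Anxa1 (-0.27) and Mmp25 (-0.18). The mean level of the list was 10.62 to 11.27 on the wild type arrays and 8.78 to 9.34 on the null arrays. Camp, the cathelicidin of secondary granules, lay at 11.03, 11.10 and 11.47 in wild type and at 7.32, 7.51 and 8.35 in null (log2 -3.58, SE 0.13). Stfa2, a cysteine protease inhibitor of neutrophils, lay at 8.97, 9.28 and 10.21 against 4.31, 4.42 and 4.73 (log2 -4.90, SE 0.14). Cxcr2, the chemokine receptor of mature neutrophils, lay at 10.97, 11.33 and 11.49 against 7.98, 8.30 and 8.78, and Itgb2l, a neutrophil integrin, fell by 1.75. The groups did not overlap in 18 of the 24 genes, against 18.3% of all genes. In bulk RNA, fewer cells of a type and less RNA of these genes per cell cannot be told apart.

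**Figure D2:**
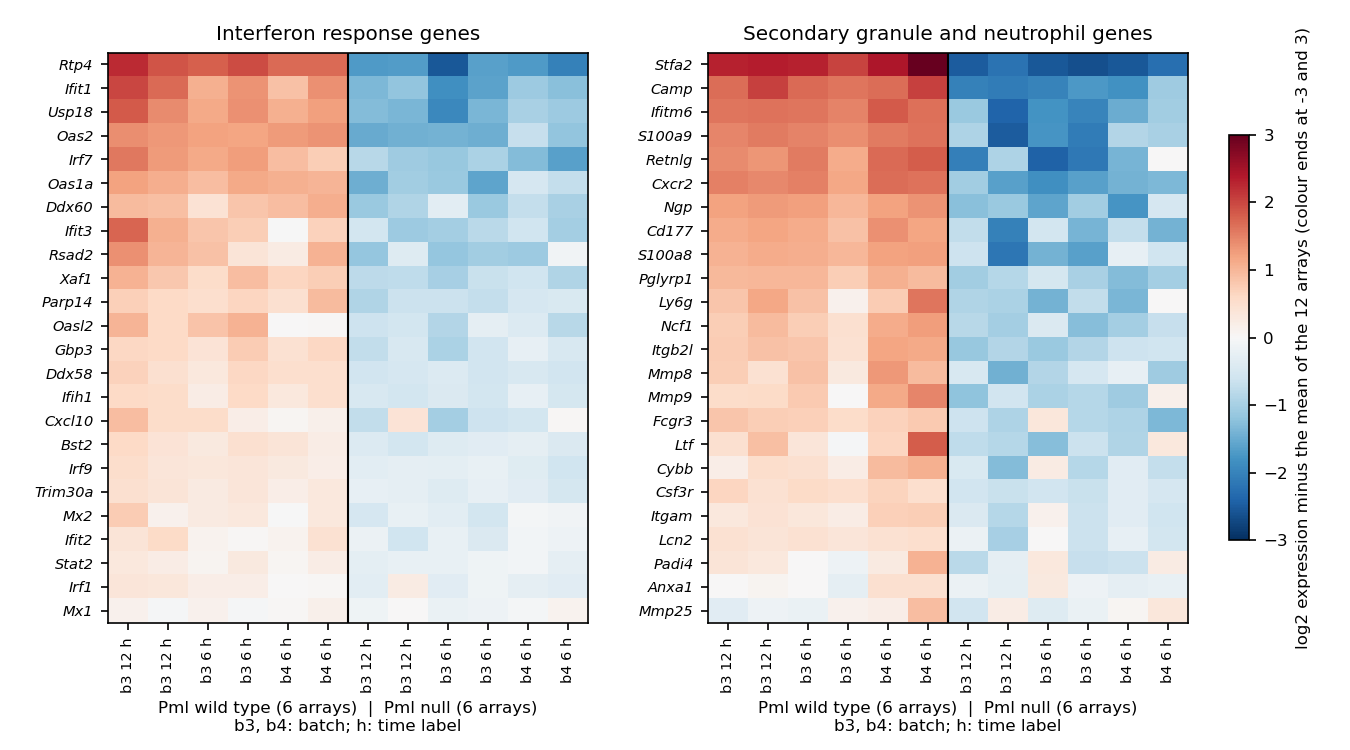
Level of each measured gene of the interferon list (left) and of the secondary granule and neutrophil list (right) on the 12 untreated arrays, as log2 expression minus the mean of the 12 arrays, with red above and blue below it. The 6 wild type columns are all above the 6 null columns in 21 of 24 interferon genes and 18 of 24 neutrophil genes. The groups overlap in the others, among them Mx1, Anxa1 and Mmp25, which were not called. Over all genes, the groups did not overlap at 18.3%.

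Primary granule and promyelocyte genes were split. Of 17 measured, 6 were higher and 8 lower, beside 19.5% and 14.7% over all genes, with a list median of -0.05. Apart from Ms4a3, the largest fall was Fcnb, the secreted lectin ficolin B, at 9.49, 9.89 and 10.35 in wild type and 6.29, 6.53 and 6.78 in null. Elane, the neutrophil elastase, was lower by 0.95 (SE 0.11) and Prtn3, proteinase 3, by 1.08 (SE 0.20), with lowest null values of 12.12 and 9.93. Cebpe and Cebpa were higher in null, as were Mpo and Ctsg above. Cebpe, the transcription factor of late granulocyte development, lay at 10.08, 10.25 and 10.34 in wild type and at 10.99, 11.29 and 11.36 in null (log2 1.00, SE 0.04, limma adjusted p 2.7e-10). Cebpa, which directs cells to the granulocyte fate, rose by 0.78 (SE 0.04).

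Among stem and progenitor genes, 8 of 25 were higher and 6 lower, beside 19.5% and 14.7% over all genes, with a median of -0.01. Kit, the receptor for stem cell factor, lay at 9.08, 9.24 and 9.56 in wild type and at 10.87, 11.05 and 11.26 in null, 3.44-fold higher (log2 1.78, SE 0.08, limma adjusted p 9.8e-10). Gata2, a transcription factor of stem and mast cells, lay at 7.35, 7.84 and 8.31 against 8.80, 9.12 and 9.53, with no overlap. Cd34 rose by 0.89 (SE 0.13), Erg by 0.91 (SE 0.05) and Myb by 0.72 (SE 0.06), whereas Spi1, the myeloid factor PU.1, fell by 0.76 (SE 0.05). The homeobox genes Hoxa9 (5.13 to 5.70 on all arrays) and Meis1 (5.27 to 5.61) were low in both backgrounds and not called. Zbtb16, which encodes the progenitor factor PLZF, lay at 7.03, 7.51 and 7.81 in wild type and at 9.23, 9.35 and 9.79 in null, 3.92-fold higher. Rara, the gene whose human counterpart is fused in APL, was lower, at 8.78, 8.99 and 9.20 against 8.02, 8.15 and 8.54 (log2 -0.79, SE 0.09). Whether its probe set also reads the RARA part of the fusion was not tested. The retinoic acid list, which holds Rara and Cebpe, had 2 of 19 higher and 4 lower, near the 34.2% called over all genes; its largest difference was Bhlhe40, a transcriptional repressor, at -1.58 (SE 0.11).

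Of 23 measured nuclear body and SUMO genes, the partners of PML, 4 were higher and 1 was lower, beside 19.5% higher and 14.7% lower over all genes. The list median was 0.07. Sp100 lay at 10.99 to 11.48 and Daxx at 8.50 to 9.03 over all 12 arrays, and neither was called (limma adjusted p 0.94 and 0.69). The calls were the kinase gene Hipk2 at 0.36, Trim24 at 0.35, the SUMO protease genes Senp1 at 0.25 and Senp6 at 0.20, and the interferon-induced nuclease gene Isg20 at -0.94.

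Genes of the p53 response moved in both directions. Of 23 measured p53 targets, 10 were lower and 3 higher, with a median of -0.12. Trp53inp1, a nuclear body protein that promotes p53 activity, lay at 11.16, 11.29 and 12.00 in wild type and at 9.44, 9.67 and 10.14 in null (log2 -1.78, SE 0.08). Sesn2, a stress-induced inhibitor of mTORC1, fell by 0.89 (SE 0.06), but its relative Sesn1 rose by 1.94 (SE 0.09), from 7.42 to 8.20 in wild type to 9.50 to 10.03 in null. Perp, a membrane protein of cell death and adhesion, rose by 1.44 (SE 0.12). Mdm2, the ligase that degrades p53, fell by 0.27 (SE 0.06). Of 14 senescence genes, 3 were higher and 4 lower; Cdkn2c fell by 0.84 and Cdkn2a rose by 0.25. Apoptosis regulators had 2 of 20 higher and 7 lower, with Bid at 0.63 and Bcl2l1 at -0.59. The counts of the p53, senescence and apoptosis lists stand beside 19.5% higher and 14.7% lower over all genes. Bcl2 was 0.61 higher, with overlapping groups (9.07 to 9.45 in wild type, 9.43 to 10.22 in null).

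The calcium genes linked to PML at the contact of endoplasmic reticulum and mitochondria were higher in 6 of 12 and lower in 1. Itpr3, the calcium release channel, lay at 8.30, 8.45 and 8.55 in wild type and at 8.87, 9.05 and 9.24 in null, and Mcu, the mitochondrial calcium channel, rose by 0.78 (SE 0.06). Pparg, the fat-cell and macrophage receptor, fell by 2.46 (SE 0.11), while the fatty acid oxidation list as a whole had 3 of 16 higher and 4 lower. In the clock list 6 of 14 were higher and 2 lower. The counts of the calcium, fatty acid and clock lists stand beside 19.5% higher and 14.7% lower over all genes. Arntl rose by 0.69 (SE 0.07), but Per2 was not called, at 7.93, 7.98 and 8.05 against 7.68, 7.81 and 8.46; without the highest null array it was called, at -0.18 (limma adjusted p 0.0212).

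Genes of the integrated stress response moved in both directions. In the integrated stress response list 10 of 18 were lower and 4 higher, beside 14.7% lower and 19.5% higher over all genes. Phgdh, the first enzyme of serine synthesis, lay at 7.41, 7.77 and 8.03 in wild type and at 9.35, 9.78 and 10.06 in null (log2 1.99, SE 0.11). Asns, asparagine synthetase, rose by 1.55 (SE 0.15). Slc7a11, the cystine transporter, fell by 1.75 (SE 0.18), Chac1, a glutathione-degrading enzyme, by 1.30, and Sesn2 fell as given above. Of 33 cell cycle genes 4 were higher and 8 lower, beside 19.5% and 14.7% over all genes (34.2% either way). The median of these genes was -0.03, and Ccnd3 had the largest difference at -0.67. Of 22 Myc and ribosome biogenesis genes 10 were higher and 4 lower, all by less than 1.5-fold, and Myc itself was not called (11.65 to 12.08 in wild type, 11.73 to 12.25 in null).

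**Figure D3:**
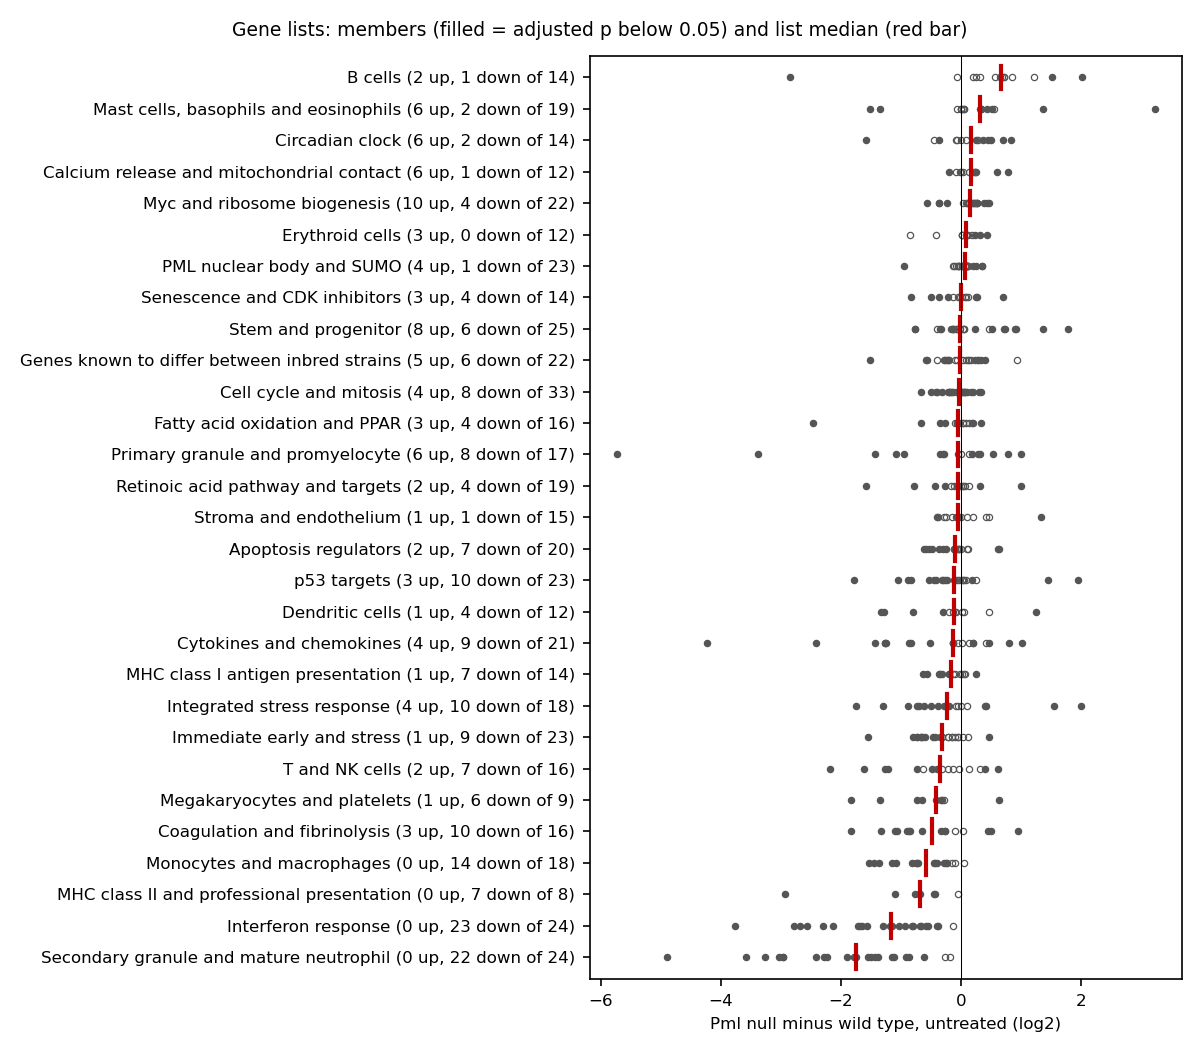
Difference between null and wild type (log2) for each measured member of the gene lists, 1 circle per gene, filled where the adjusted p was below 0.05, with the list median as a red bar and the counts of called members beside each name. The neutrophil list (median -1.76) and the interferon list (median -1.17) lie farthest to the left, and the B cell list (0.66), most of whose members were not called, farthest to the right.

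Markers of other marrow cells moved as well, and their part in the results above was not tested. Their counts stand beside 19.5% higher and 14.7% lower over all genes. Of 18 monocyte and macrophage genes, 14 were lower and none higher (median -0.58); the mean level of the list was 8.47 to 8.86 in wild type and 7.72 to 8.18 in null. Fcgr1, the high-affinity Fc receptor, fell by 1.46, Ccr2 by 1.36 and Cd68 by 1.09. Of 9 megakaryocyte genes 6 were lower and 1 was higher, with Thbs1 at -1.83 and Itgb3 at 0.64, and their list means overlapped (7.82 to 8.72 and 7.19 to 8.14). In the T and NK list 7 of 16 were lower and 2 higher. Thy1, a surface marker of T cells and early progenitors, fell by 2.17 and Gzmb by 1.62, while Cd3e of the T cell receptor complex was not called (7.05 to 7.57 and 7.01 to 7.50).

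The B cell list varied between arrays within both backgrounds, from 6.63 to 7.95 in wild type and from 6.84 to 8.61 in null. Of its 14 genes 2 were higher and 1 lower, and the call of Spib, a transcription factor of B cells, was lost without any 1 of 8 arrays (limma adjusted p up to 0.116). Ms4a1, which encodes CD20, lay at 5.32, 5.95 and 7.86 in wild type and at 7.12, 7.68 and 9.77 in null, with overlapping groups (log2 2.01, SE 0.48). Igll1, a chain of the precursor B cell receptor, went down by 2.85. Of 19 mast cell, basophil and eosinophil genes 6 were higher and 2 lower. Cpa3 and Gata2 rose, and Mcpt8 and Ms4a2 fell by 1.51 and 1.35. In the dendritic cell list 4 of 12 were lower and 1 was higher, with the transcription factor gene Tcf4 at -1.34 and Itgax, which encodes CD11c, at -1.29. In the erythroid list 3 of 12 were higher and none lower, while over all genes 19.5% were higher and 14.7% lower. In the list for stroma and endothelium 1 of 15 was higher and 1 lower; Pecam1, an adhesion molecule of endothelium and blood cells, rose by 1.32.

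Among secreted and clotting proteins, 9 of 21 genes of the cytokine list were lower and 4 higher (median -0.14), with Il18 at -2.41, Il1rn at -1.44 and Il1b at -1.27. In the coagulation and fibrinolysis list 10 of 16 were lower and 3 higher (median -0.49). Thbd, thrombomodulin, fell by 1.09 and Anxa2, the plasminogen receptor subunit known for bleeding in APL, by 1.07, from 11.93, 12.15 and 12.22 in wild type to 10.69, 11.11 and 11.29 in null. Immediate early genes had 9 of 23 lower and 1 higher, with Jun at -1.55 (SE 0.22). The shares over all genes were 14.7% lower and 19.5% higher.

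The RA-treated arrays of the same model, 12 per background and none shared with the comparison above, gave a second measurement of the same difference. On them, 3219 genes were higher in null (16.1%) and 2759 lower (13.8%), in a limma fit with batch and time. Of the 1707 genes called with at least 1.5-fold without RA, 1695 had the same sign with RA, 1611 were called in that direction and none was called the opposite way. All 40 largest named changes were called in the same direction with RA. The RA-treated arrays may come from the same leukaemias, so this repeats the measurement and not the founders. Some values differed with RA: Cebpe was 1.00 higher without RA and 0.21 higher with it (limma adjusted p 0.4), Spi1 was -0.76 and -0.20, and Cd40lg 3.17 and 1.65. The interaction with treatment is not tested here. Interferon genes stayed lower with RA (21 of 24 called lower, 1 higher, median -1.09), as did neutrophil genes (21 of 24 lower, median -1.66).

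**Figure D4:**
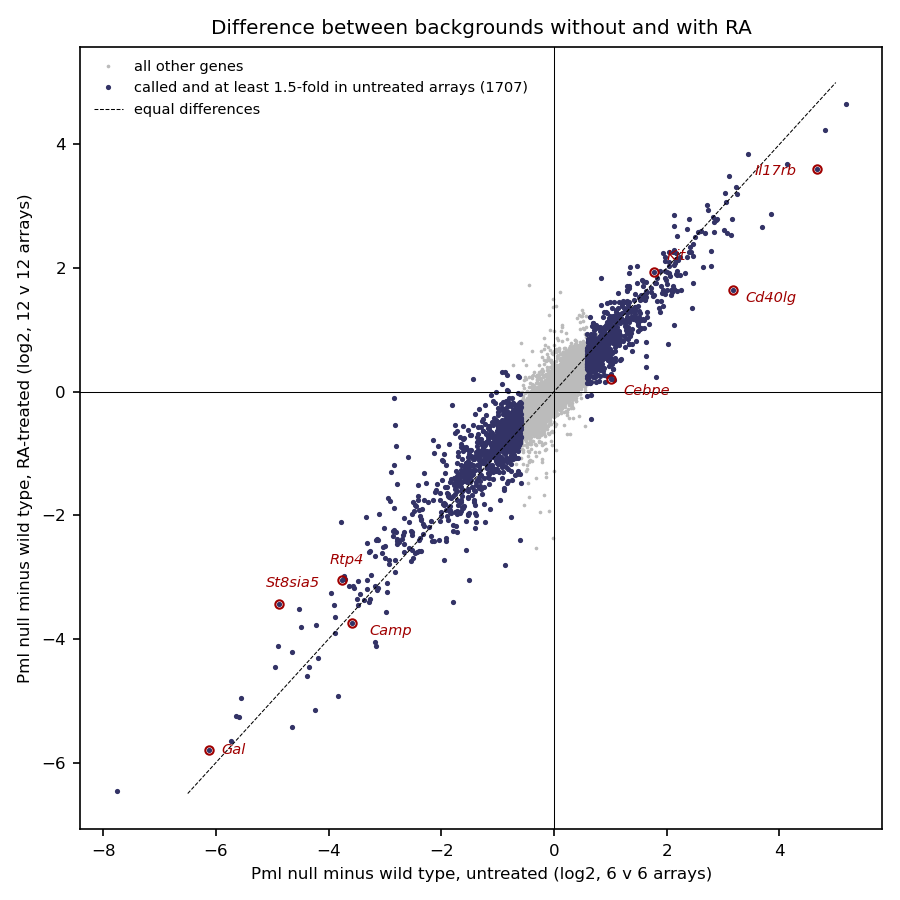
Difference between null and wild type for each gene on the untreated arrays (horizontal axis, log2, 6 against 6) and on the RA-treated arrays (vertical axis, log2, 12 against 12), with the 1707 genes called and at least 1.5-fold without RA in dark blue. Most points lie along the dashed line of equal differences, such as Gal at -6.13 and -5.80, and Cebpe lies below it at 1.00 and 0.21.

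The time label changed the difference between backgrounds at 1 gene (0.00502% of those tested). In the 8 arrays of batch 3, Hspb1, a small heat shock protein, differed by a further -2.35 at 12 h compared with 6 h (SE 0.13, limma adjusted p 0.00178). With all 36 viral arrays in 1 limma fit, the value was -2.22 (SE 1.25) and 0 genes were called, with 190 genes at an unadjusted p below 0.05. Hspb1 lay at 8.85 and 8.87 on the wild type arrays at 12 h, at 6.30 and 6.53 on those at 6 h, and at 6.04 to 6.18 on the null arrays of that batch. The wild type arrays of batch 4, at 6 h, lay at 6.18 and 7.27, and the RA-treated wild type arrays of batch 3 spread from 6.09 to 11.56. Within wild type 1 gene differed between the times and within null none did, while 688 and 747 genes had an unadjusted p below 0.05. These arrays were untreated at both labels.

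The batch changed the difference at 5 genes (0.0251%), tested at 6 h with 2 arrays per background and batch. For this change, 1244 genes had an unadjusted p below 0.05. The batches themselves differed at 497 of 19938 genes within wild type, 40 higher and 457 lower in batch 4. Within null they differed at 25 genes, 5 higher and 20 lower. Qprt, an enzyme of NAD synthesis, lay at 7.80 to 8.60 in wild type in batch 3, at 11.53 and 11.66 in wild type in batch 4, and at 7.92 to 8.11 on all null arrays. Tarbp1, an RNA methyltransferase, lay at 7.89 to 8.40 and at 10.85 and 11.01 in wild type, and at 7.20 to 7.66 in null. The same split was seen with RA, where Qprt lay at 7.60 to 8.04 on the wild type arrays of batch 3 and at 11.68 to 11.90 on those of batch 4. Serpinb9e, a granzyme inhibitor family member, and Tktl1, a transketolase-like gene, were instead lower on the wild type arrays of batch 4 (6.61 to 6.65 and 5.43 to 5.70) than of batch 3 (8.12 to 9.04 and 6.27 to 7.51). Asns was 9.83 to 9.85 and 10.87 to 11.30 on these arrays. With RA, the wild type arrays of batch 4 and batch 3 stayed apart for Tktl1 (5.54 to 5.68 and 6.66 to 7.53). They overlapped for Serpinb9e (7.13 to 8.19 and 8.11 to 10.74) and for Asns (10.48 to 11.05 and 10.30 to 11.48). Whether the wild type arrays of the 2 batches hold separate leukaemias is not stated in the labels.

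Neighbouring genes moved together on 4 chromosomes, which were picked after the values were seen and are not the only ones with such a stretch. Among the 9950 placed genes with a mean above the median of all genes, 33.2% were higher, 22.7% were lower and the median difference was 0.05. Of the 355 such genes on chromosome 12, 246 (69.3%) were lower and 20 (5.63%) higher, and their median was -0.34. Over all genes of chromosome 12, weak ones included, the median was -0.11. On the other chromosomes the medians lay between -0.08 and 0.14. With RA the median of chromosome 12 was -0.32. Scored per array as the median of its genes relative to the 12 arrays, chromosome 12 lay at 0.14 to 0.25 in wild type and at -0.20 to -0.16 in null. Genes of the lists above that lie on it include Max (-0.57) and Rrm2 (-0.50); 1 gene of the interferon list and none of the neutrophil list does.

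Parts of other chromosomes also moved together, with counts that stand beside 33.2% higher and 22.7% lower over the same 9950 genes. In the last 20% of the genes of chromosome 5 by rank, from Ift22 to Rfc3, 98 of 129 were lower and 3 higher, with a median of -0.31, against 0.05 in the 80% before. In the first 50% of chromosome 15, from Selenop to Sh3bp1, 137 of 199 were lower (median -0.28), whereas in the last 40% 69 of 159 were higher and 18 lower (median 0.12). In the last 20% of chromosome 11, from Myl4 to Metrnl, 115 of 177 were higher and 15 lower (median 0.31). Pecam1 (1.32) lies on chromosome 11. A shorter stretch of 27 genes on chromosome X, from Pgk1 to Tbc1d8b, had 18 higher and 4 lower (median 0.32). Each of these medians had the same sign with RA, from -0.33 on chromosome 5 to 0.27 on chromosome 11.

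The untreated arrays of the transgenic PML/RARA model, 8 arrays in batches of their own, served as an outside level; batch and model cannot be told apart in these values. Against them the median of chromosome 12 was 0.32 in wild type and 0.00 in null, and the other chromosomes lay between -0.15 and 0.04 in wild type and between -0.07 and 0.02 in null. The end of chromosome 5 was at 0.22 in wild type and -0.06 in null, the first 50% of chromosome 15 at 0.22 and -0.01, and the end of chromosome 11 at -0.07 and 0.18. Among the chromosomes picked, the wild type arrays thus stood apart on 5, 12 and 15, and the null arrays on 11. The stretch of chromosome X was at -0.26 in wild type and 0.05 in null. DNA copy number was not measured in these samples, and its part in these values was not tested. Without the 652 genes of chromosome 12, 6497 of 19286 genes were called.

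**Figure D5:**
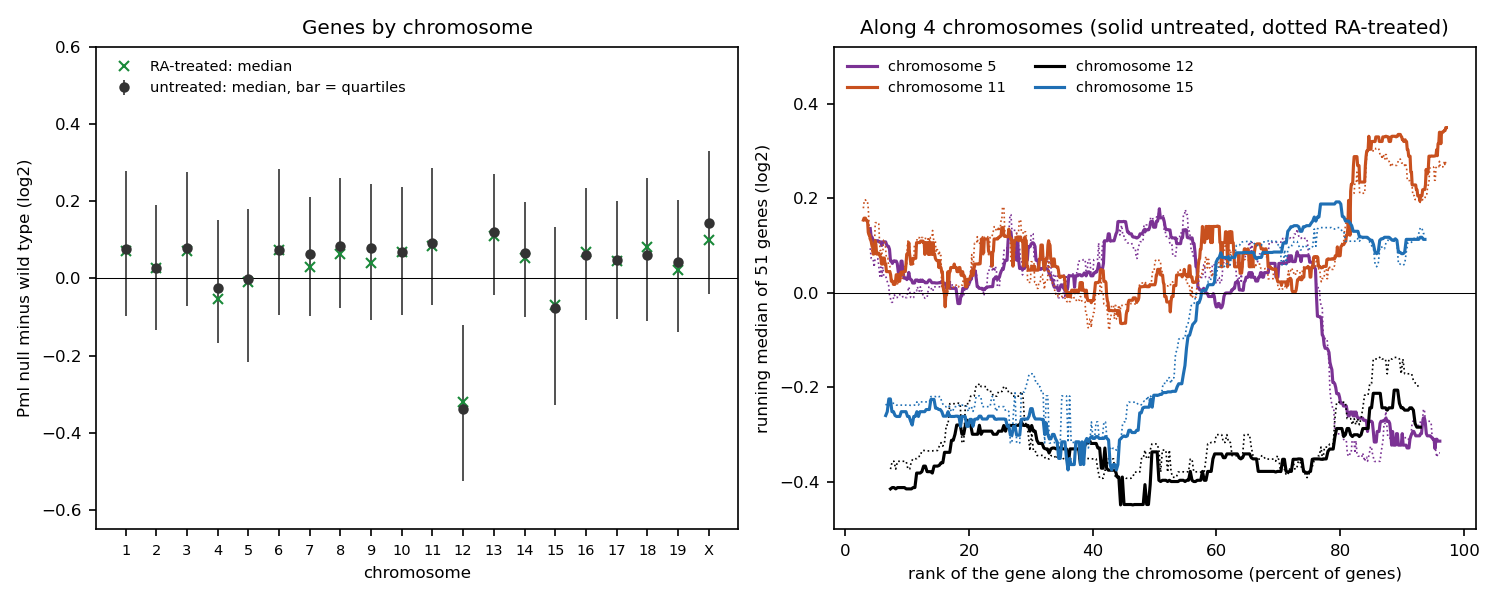
Left, median difference between null and wild type (log2) of the genes of each chromosome with a mean above the median of all genes, with bars for the quartiles and green crosses for the RA-treated arrays. Right, running median of 51 genes in order of rank along chromosomes 5, 11, 12 and 15, solid without and dotted with RA; chromosome 12 lies below 0 throughout, and the steps on the others stand at the same ranks in both sets of arrays.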

How the data were processed

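Bone marrow RNA of mice with viral PML/RARA leukaemia was hybridised to Mouse Gene 1.0 ST arrays of Affymetrix. The authors deposited log2 values made with RMA and the affy package, per the submitters' processing notes without versions. The genome build is not given in the sources used here, nor is a batch correction. RMA is known to compress differences of low genes. Of 35556 probe sets, 23410 are listed in the platform annotation, 21789 with 1 symbol and 1621 with several; the probe set with the highest mean stood for a gene, giving 19938 genes, with none left out for low signal.

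Null and wild type arrays were compared with limma 3.58.1 in R 4.3.3 (package data.table, version 1.17.8), two-sided, with batch as an additive term and 9 residual degrees of freedom; the number of arrays limits the precision. The RA-treated fit added time, and the interactions used the 8 arrays of batch 3 or the 8 arrays of 6 h. The script was tested on simulated data. Of 629 entries in 31 gene lists, 555 were measured; the other entries, and 3 genes of a panel, were not analysed here, and 1 list is not reported here.

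Named genes are the 20 largest rises and 20 largest falls among calls, leaving out predicted, clone and pseudogene names and the olfactory and vomeronasal receptors, then at most 4 genes per list by the size of the limma statistic, a panel (Pml, its partners and leukaemia genes), the markers of APL promyelocytes and the 5 leading genes of each interaction. Other names were chosen after their values were seen. The members, lists and tests were chosen with earlier results of these data known. Lists are described by counts and medians, with no test of a list. Alternatives covered the arrays used, batch and time terms, normalization, a filter, the probe set of a gene, the variance model, array weights and each array left out.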

Additional observations from a re-analysis of the deposited data

Results flagged for a closer look

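Some genes named above had 1 array far from the other 5 of its group by Dixon's criterion. This held in 14 of 250 groups of 6 arrays (125 genes), where chance gives about 1 in 20. In null, the same 6 h array of batch 3 was the highest for Sp100 (11.48, others 11.06 to 11.08), Isg20 (9.383, others 8.433 to 8.698), Per2 (8.463, others up to 7.973) and Anxa1 (10.91, others up to 10.46). One 6 h array of batch 4 was the highest null array for Camp (8.349, others up to 7.698) and Mgl2 (5.881, others up to 5.568). Single null arrays were also high for Trim24 (8.344) and Cd3e (7.502). In wild type, 1 array of batch 4 was the highest for Stfa2 (10.21, others up to 9.370) and Hipk2 (10.51), and 1 array of batch 3 was the lowest for Cd80 (8.412, others from 9.515) and Il1rn (8.706, others from 9.271). Another wild type array of batch 4 was the highest for Hoxa9, at 5.700, and the lowest for Tcf4, at 7.646 (others from 8.283).

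The difference between backgrounds itself changed at 6 genes, each by an interaction term in limma. For Hspb1 the change from 6 h to 12 h in batch 3 was -2.355. Between batch 4 and batch 3 at 6 h it changed by -3.752 for Qprt, -2.616 for Tarbp1, 2.223 for Serpinb9e, 1.850 for Tktl1 and 1.057 for Asns. For Tktl1 the null arrays differed between batches too, at 5.51 to 5.82 in batch 3 and 6.04 to 6.11 in batch 4. The cause of the batch differences was not tested.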

How the results depend on the processing

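The number of genes called untreated (6820) depended on which arrays entered. It was 4151 with all 36 viral arrays in the fit, 3760 in batch 4 only and 3062 with the 12 h arrays only, where the last 2 fits had 2 arrays per background, and 6218 to 6692 with each array left out. The other alternatives kept it within 1.5 times. The number of calls of at least 1.5-fold (1707) stayed between 1403 and 1896 under all alternatives. Among the neighbours of Pml, 9 were called with all 36 arrays, 6 in batch 4 only and 9 with genes above the median level, against 14. The count with genes above the median level covers only the neighbours that pass that filter, not all of them. With RA, batch 4 alone gave 3801 calls against 5978. The time interaction gave 1 call, 0 calls with all 36 arrays, and 1 to 7 with each array left out; 7 came without null array 4 (12 h), 3 without wild type array 6 and 2 without null array 6 (both 6 h). Tktl1 reversed in batch 4 only, at 0.504. The 40 largest named changes kept direction and call in 1038 of 1038 alternative values. They were picked by size on these same arrays, which most alternatives reuse, so this outcome was likely beforehand and says nothing of smaller changes. Hspb1 (adjusted p 0.038) lost its overall call without any 1 of 8 arrays, at up to 0.0828. After the data were seen, the median of chromosome 12 was also taken over all its genes, where it was -0.11, and in batch 4 only, where it was -0.25. For probe sets near background a difference may understate the change in RNA. The 12 arrays cannot separate background from leukaemia of origin.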
